A study of Homo sapiens with 4 samples.

Results

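The aminoacyl-tRNA synthetase genes were taken as the entries of the deposited expression table whose pathway annotation holds aminoacyl-tRNA biosynthesis, which were 44 of 64873 entries. They comprised 19 cytosolic synthetase genes, 17 mitochondrial synthetase genes, 2 genes (GARS1 and KARS1) that each supply both compartments, and 6 enzymes that act on an amino acid after it has been joined to a tRNA. Expression was measured by RNA-seq of ribosomal RNA-depleted total RNA from K562-U2AF1_S34F cells, an established human erythroleukemia line made to overexpress the S34F mutant of the splicing factor U2AF1. The comparison was between 2 libraries from cells given the solvent DMSO and 2 from cells given SF1-8, described as an inhibitor of the U2AF homology domain of U2AF1, at 30 µM, both for 48 h. All 4 libraries carried the same overexpressed mutant, and no library from cells without it was analysed here. The vector, and whether the line is 1 clone, are not given in the sources used here. The study sequenced these cells to see what SF1-8 does to gene and transcript expression, and the question here is what became of the tRNA-charging enzymes.

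Aminoacyl-tRNA synthetases join each amino acid to its matching tRNA, and the charged tRNAs are what ribosomes read. Human cells keep separate nuclear genes for the enzymes of the cytosol and for those imported into mitochondria, whose names end in 2. Mitochondria make no separate glutaminyl-tRNA synthetase. They charge that tRNA with glutamate and convert the glutamate with the GatCAB amidotransferase. In many cells the cytosolic enzymes are transcribed under the transcription factor ATF4 when amino acids run short, through a DNA element that resembles TGATGNAA, and several of them sit in a multi-synthetase complex.

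No aminoacyl-tRNA biosynthesis gene passed the test between SF1-8 and DMSO, at an adjusted or an unadjusted threshold. All 44 entries passed the filter on low counts, and 0 of 44 passed an adjusted p of 0.05 in edgeR, whose quasi-likelihood p-values were adjusted by Benjamini-Hochberg over 26167 entries. The lowest adjusted p among them was 0.970. Over all entries tested, 11 were called, or 0.042% (0.0191% higher and 0.0229% lower). At an unadjusted p under 0.05, 0 of 44 were called against 4.33% of all entries and 4.4% of the 9078 entries whose mean CPM (counts scaled to library size by edgeR, not divided by length) reached that of the least abundant of these genes, and the smallest unadjusted p was 0.129, for GATB. By DESeq2 the counts were 0 of 44 at an adjusted p and 0 of 44 at an unadjusted p under 0.05, against 0.623% and 4.43% of all entries. The log2 fold changes ran from -0.13 for CARS2 to 0.27 for GATB, and all 44 of their 95% intervals included 0. The outermost interval bounds were -0.46, for FARS2, and 0.65, for GATB, so that 0.728-fold and 1.56-fold were the most extreme values any interval held. For 41 of 44 genes the whole interval lay between -0.5 and 0.5, which was so for 26.4% of all entries tested and for 72.4% of those 9078. Nothing in the labels says that the 2 libraries of a group came from separate cultures, so the p-values measure the spread between these libraries, which may be technical.

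**Figure D1:**
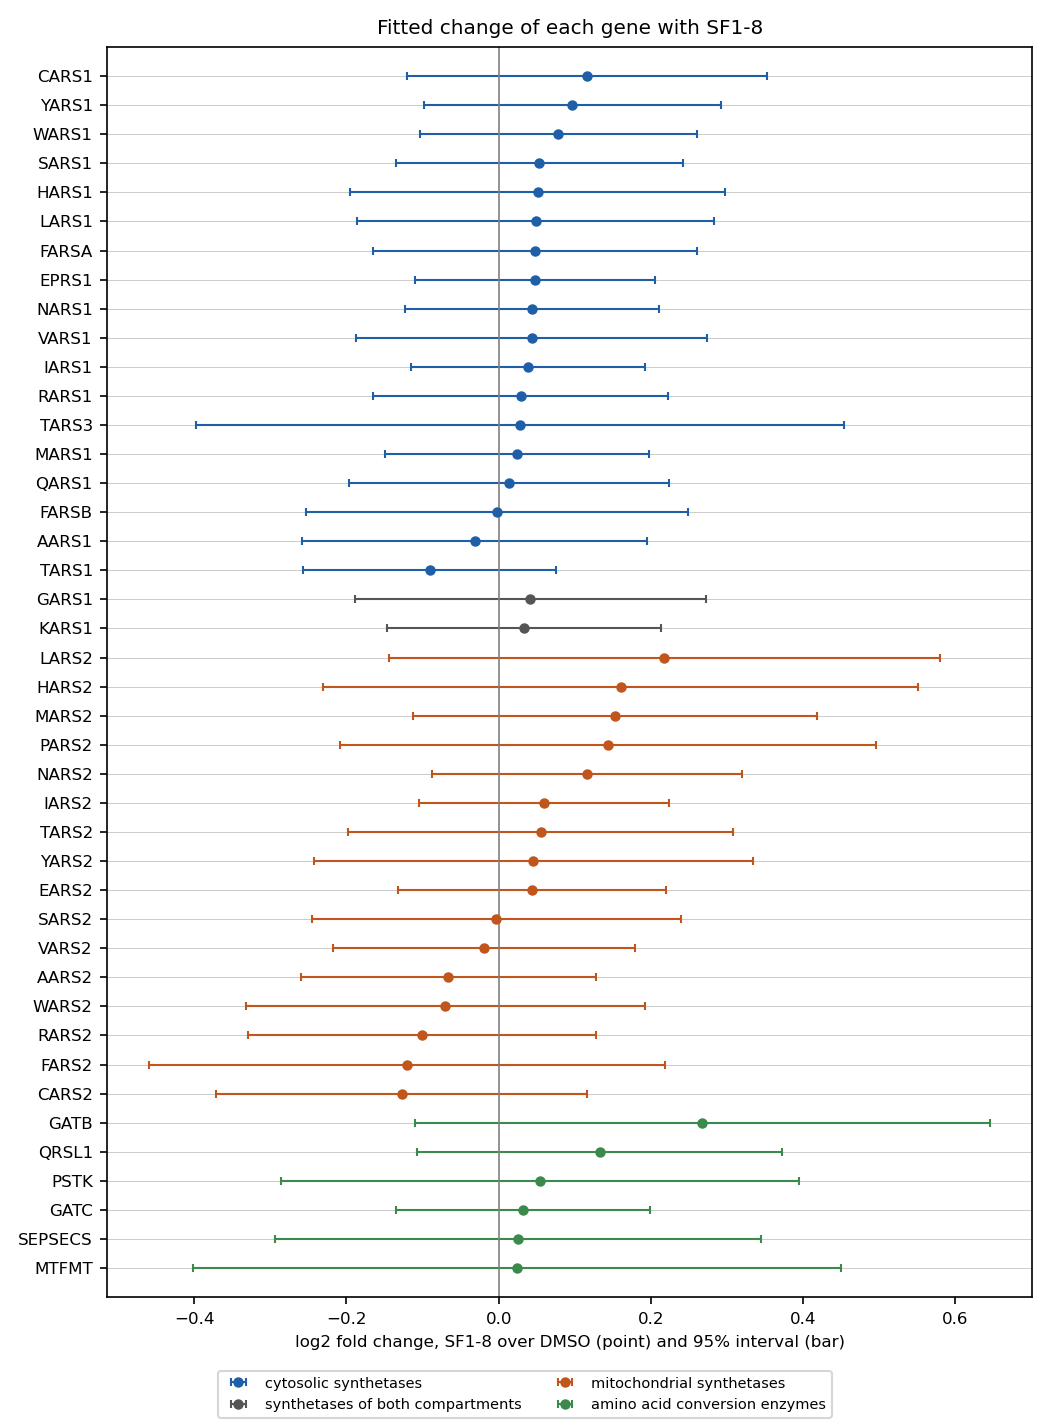
Fitted log2 fold change of SF1-8 over DMSO (point) with its 95% interval (bar) from edgeR for 42 of the 44 genes, coloured by compartment and sorted within it. Every bar crosses 0, and the points lie between -0.13 and 0.27.

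The 4 libraries held 45522905 to 67554610 estimated counts, the least in DMSO 1, and each of the 44 genes had a mean of at least 11.6 CPM. The deposited counts pile up on multiples of 4, so they are estimates rather than single reads, and their counting error is unknown. K562 erythroid markers were present in every library, with FPKM (fragments scaled to entry length and library depth) summing to 259 and 257 in DMSO 1 and 2 and to 234 and 255 in SF1-8 1 and 2. Of their 7 tested entries 6 had a fold change below 0, with a median of -0.04, and 0 had an unadjusted p under 0.05. At that p 4.33% of all entries were called (1.78% higher and 2.54% lower). Stromal markers were lower with SF1-8, with summed FPKM of 10.2, 5.01, 2.57 and 0.594 in the same order. Of their 8 tested members 7 had a fold change below 0, and 0 had an adjusted p under 0.05. At an unadjusted p under 0.05, 5 were lower (COL1A2, COL3A1, DCN, LUM and PDGFRB), against 2.54% of all entries. Their most abundant gene, COL1A1, fell short of that unadjusted threshold and read 5.39, 2.60, 1.21 and 0.098 FPKM, while LUM was listed at 0 in both SF1-8 libraries. Against these sums the 44 genes together held 799, 778, 788 and 801 FPKM, a sum that overlapped between the groups, and the part of the stromal difference in any value given here was not tested. Of 7 lymphoid and monocyte markers, 6 were tested and 0 had an unadjusted p under 0.05, against 4.33% of all entries.

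The cytosolic enzymes were the more abundant class, with a median of 21.7 FPKM over the 19 genes against 7.19 over the 17 mitochondrial ones. FPKM is a level per length of the entry, which can be longer than the synthetase's own transcript, so the order of genes is given on that scale first and on another further on. VARS1, which charges valine, was the highest of all 44 and read 65.9 and 72.9 FPKM in DMSO 1 and 2 and 70.4 and 70.2 in SF1-8 1 and 2. IARS1, the isoleucine enzyme, read 57.5, 55.2, 55.3 and 58.2. EPRS1, a single protein that charges both glutamate and proline, read 56.2, 53.2, 54.2 and 56.8. The DMSO libraries of VARS1 differed by more than the groups did. For these 3 enzymes the groups overlapped in FPKM, though those of EPRS1 did not in CPM. Their log2 fold changes were 0.04 ± 0.09 (SE, adjusted p = 0.977) for VARS1, 0.04 ± 0.06 (adjusted p = 0.970) for IARS1 and 0.05 ± 0.06 (adjusted p = 0.970) for EPRS1. Without DMSO 1 the change of VARS1 was -0.065, so its sign rested on that library.

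Among the mitochondrial enzymes IARS2 stood alone at the level of the most abundant cytosolic ones, at 51.9 and 48.2 FPKM in DMSO and 50.01 and 52.3 in SF1-8. The groups overlapped in FPKM and not in CPM, and its log2 fold change was 0.06 ± 0.06 (SE, adjusted p = 0.970). NARS2, for asparagine, was the next most abundant mitochondrial synthetase, at a mean of 15.0 FPKM over the 4 libraries, followed by AARS2, for alanine, at 13.5 and YARS2, for tyrosine, at 13.1. The lowest in FPKM was CARS2, for cysteine, at 2.47. GARS1, whose glycine enzyme reaches both compartments, read 9.64, 10.5, 10.1 and 10.4 FPKM, and KARS1, the lysine enzyme, read 38.7, 35.7, 38.3 and 36.4. Both overlapped between the groups, with log2 fold changes of 0.04 ± 0.09 (SE, adjusted p = 0.979) and 0.03 ± 0.07 (adjusted p = 0.978). The sign of GARS1 rested on DMSO 1, without which it was -0.058, and that of KARS1 on SF1-8 1, without which it was -0.0070.

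The order of levels was coarse. When the 44 genes were ranked by mean FPKM, 11 of the 43 neighbouring pairs were separate in all 4 libraries and 32 overlapped. VARS1 stood above IARS1 in every library, whereas IARS1 and EPRS1 overlapped, as did IARS2 and FARSA, the catalytic subunit of the phenylalanine enzyme. The lowest 2 genes in FPKM, PSTK and GATB, at means of 1.23 and 1.20, overlapped with each other. Both lay below all the others in every library on that scale.

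Setting each cytosolic enzyme beside the mitochondrial enzyme for the same amino acid gave 19 pairs, in which EPRS1 stands against both EARS2 and PARS2 and several genes recur. The cytosolic gene was higher in all 4 libraries in 17 of the 19 pairs, with a median FPKM ratio of 2.18. The largest ratio was 12.1, for FARSA over FARS2. FARSB, the partner subunit of FARSA, was 2.18 times FARS2. The smallest ratio above 1 was 1.12, for IARS1 over IARS2, and YARS1 over YARS2 was next at 1.20. The other 2 pairs ran the other way in all 4 libraries. TARS3, a second cytosolic threonine enzyme, was 0.611 times TARS2, while the main threonine enzyme TARS1 was 6.30 times TARS2. HARS1, for histidine, was 0.391 times HARS2.

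**Figure D2:**
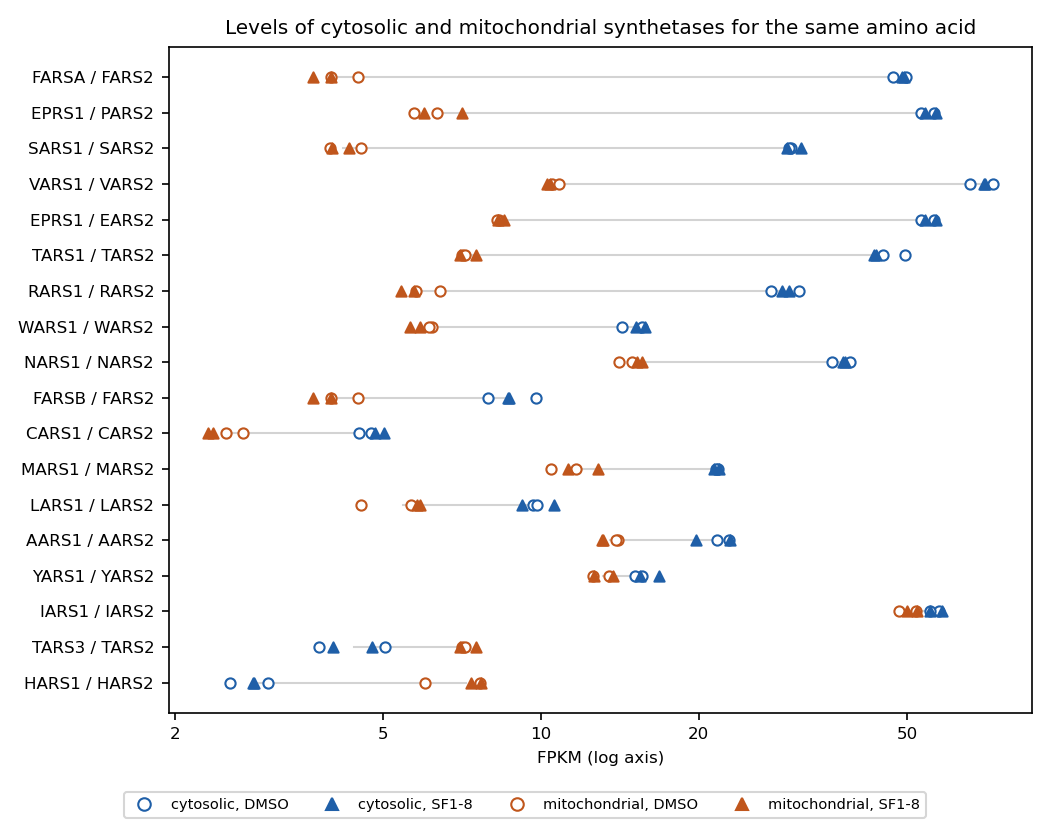
FPKM (log axis) of the cytosolic (blue) and mitochondrial (orange) synthetase for the same amino acid in each library, for 18 of the 19 pairs, with DMSO as open circles and SF1-8 as filled triangles, sorted by the ratio of their means from 0.391 (bottom) to 12.1 (top). Cytosolic genes lie to the right in 16 of the 18 pairs drawn, and the DMSO and SF1-8 symbols of a gene lie close together.

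The lengths behind these FPKM values were those of merged entries. The length implied by an entry's count and FPKM was a median of 1.82 times that of the gene's longest coding transcript in GENCODE v29, and it ran from 0.987 times for TARS1 to 6.60 times for GARS1. CPM divided by the length of that coding transcript gave another scale, on which the cytosolic gene was again higher in 17 of 19 pairs, with a median ratio of 2.66 and a largest ratio of 9.27 for EPRS1 over PARS2. HARS1 was 0.527 times HARS2 and TARS3 0.503 times TARS2 on it. On this scale VARS1 and IARS1 led, at 120.2 and 119.8, and GARS1, at 84.5, stood above KARS1, at 78.6, which was the reverse of their order in FPKM. IARS2 again led the mitochondrial synthetases, at 74.1, but EARS2, whose entry includes GGA2, was next at 43.5 and NARS2 stood at 23.6. PARS2 was the lowest mitochondrial synthetase, at 7.95, below CARS2 at 17.4. Of all 44 genes the lowest was SEPSECS, at 4.41, below PSTK at 6.83 and GATB at 7.47.

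Of the 44 entries, 10 named more than 1 gene. In 4 the other name was a small RNA gene, a microRNA for QARS1, TARS2 and MARS1 and a U1 pseudogene for CARS1. HARS1 was merged with DND1, HARS2 with ZMAT2, EARS2 with GGA2, SARS2 with FBXO17 and AC011455, VARS2 with GTF2H4 and AL669830, and GATC with COX6A1 and AL021546. In those 6 entries the share of the value that belongs to the synthetase or to GATC cannot be told apart from that of its neighbour. The 34 entries with a single name had 26 fold changes above 0, 8 below, a median of 0.04 and no call.

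The histidine genes are a case in point, because they start 85 bases apart on opposite strands of chromosome 5 and their entries lie between chr5:140670794-140691415 and chr5:140691430-140706686. The bases between the 2 RefSeq start sites are shown as the stretch from which HARS1 is read to the left and HARS2 to the right (GRCh38.p14, chr5:140691371-140691454, + strand). Capitals mark both matches of CCGGAAG, searched on both strands, a sequence that 10.3% of all 35116 RefSeq promoter windows of 300 bases hold.
HARS1 and HARS2: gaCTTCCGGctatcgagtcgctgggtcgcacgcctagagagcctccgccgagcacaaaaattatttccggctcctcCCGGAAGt

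For the 2 merged entries, which include DND1 and ZMAT2, the table listed 3.02, 2.55, 2.83 and 2.82 FPKM for the entry of HARS1 and 6.02, 7.66, 7.36 and 7.70 for that of HARS2, in DMSO 1, DMSO 2, SF1-8 1 and SF1-8 2. DMSO 1 was the highest of the 4 for HARS1 and the lowest for HARS2. Neither gene separated the groups. The log2 fold change was 0.05 ± 0.10 (SE, adjusted p = 0.973) for HARS1 and 0.16 ± 0.15 (adjusted p = 0.970) for HARS2.

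Promoter sequences were at hand for 34 of the 44 genes, as RefSeq windows of 250 bases before to 50 after the start site on GRCh38.p14. The 8-letter pattern TGATGNAA, searched on both strands, stood in 8 of the 34. It stood in 6 of 14 cytosolic synthetase genes, 1 of the 2 that supply both compartments, 1 of 14 mitochondrial ones and 0 of 4 amino acid conversion enzymes, while 4.46% of 27305 genes in the reference hold it. Of 30 known ATF4 target genes listed for comparison, with ATF4 itself counted among them, 25 had a window and 7 held the pattern. LARS1, TARS3, VARS1, YARS1, AARS2, VARS2, MTFMT and SEPSECS were among the 10 genes with no window. A match is a description of the sequence and not a binding site. The 8 matches are shown because they mark which synthetase genes carry the letters of the amino acid response element, each as 30 bases on the gene's own strand with the match in capitals.
AARS1 (chr16:70289675-70289704, - strand): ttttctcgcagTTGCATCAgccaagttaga
CARS1 (chr11:3057407-3057436, - strand): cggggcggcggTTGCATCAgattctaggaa
IARS1 (chr9:92293692-92293721, - strand): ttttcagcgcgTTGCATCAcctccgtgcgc
MARS1 (chr12:57488053-57488082, + strand): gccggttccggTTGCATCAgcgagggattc
NARS1 (chr18:57621804-57621833, - strand): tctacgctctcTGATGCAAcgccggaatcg
TARS1 (chr5:33440956-33440985, + strand): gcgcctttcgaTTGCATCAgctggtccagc
GARS1 (chr7:30594834-30594863, + strand): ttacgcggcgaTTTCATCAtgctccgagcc
YARS2 (chr12:32756076-32756105, - strand): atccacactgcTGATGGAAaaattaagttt

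The 6 cytosolic matches all read TGATGCAA on one strand or the other, whereas GARS1 and YARS2 each differed at the free base. In CARS1, IARS1, MARS1, NARS1 and TARS1 the first base of the match lay within 14 bases of the start site, in GARS1 33 bases before it, and in AARS1 and YARS2 187 and 197 bases before it. The 8 genes with the pattern had log2 fold changes from -0.09 (TARS1) to 0.12 (CARS1), with a median of 0.04, and the other 26 with a window had a median of 0.05.

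The spread between replicates was as large as that between the groups for most of the genes. The difference between the 2 DMSO libraries of a gene had a median size of 0.08 on the log2 CPM scale, that between the 2 SF1-8 libraries 0.05 and that between the group means 0.05. The group difference exceeded both replicate differences in 10 of the 44 genes. A group mean averages 2 libraries, so at equal spread a group difference is expected to be narrower than a replicate difference. How often this held over all entries was not counted. In CPM the groups did not overlap in 18 of 44 genes, 13 higher and 5 lower with SF1-8, where 35.5% of all entries did not overlap (17.3% higher and 18.1% lower), as did 36.1% of the 9078 abundant ones. In FPKM, which the authors did not scale by TMM, 14 of 44 did not overlap, 7 higher and 7 lower, against 34.2% of all entries (14.2% higher and 20% lower). The split between higher and lower genes thus moved with the scale.

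**Figure D3:**
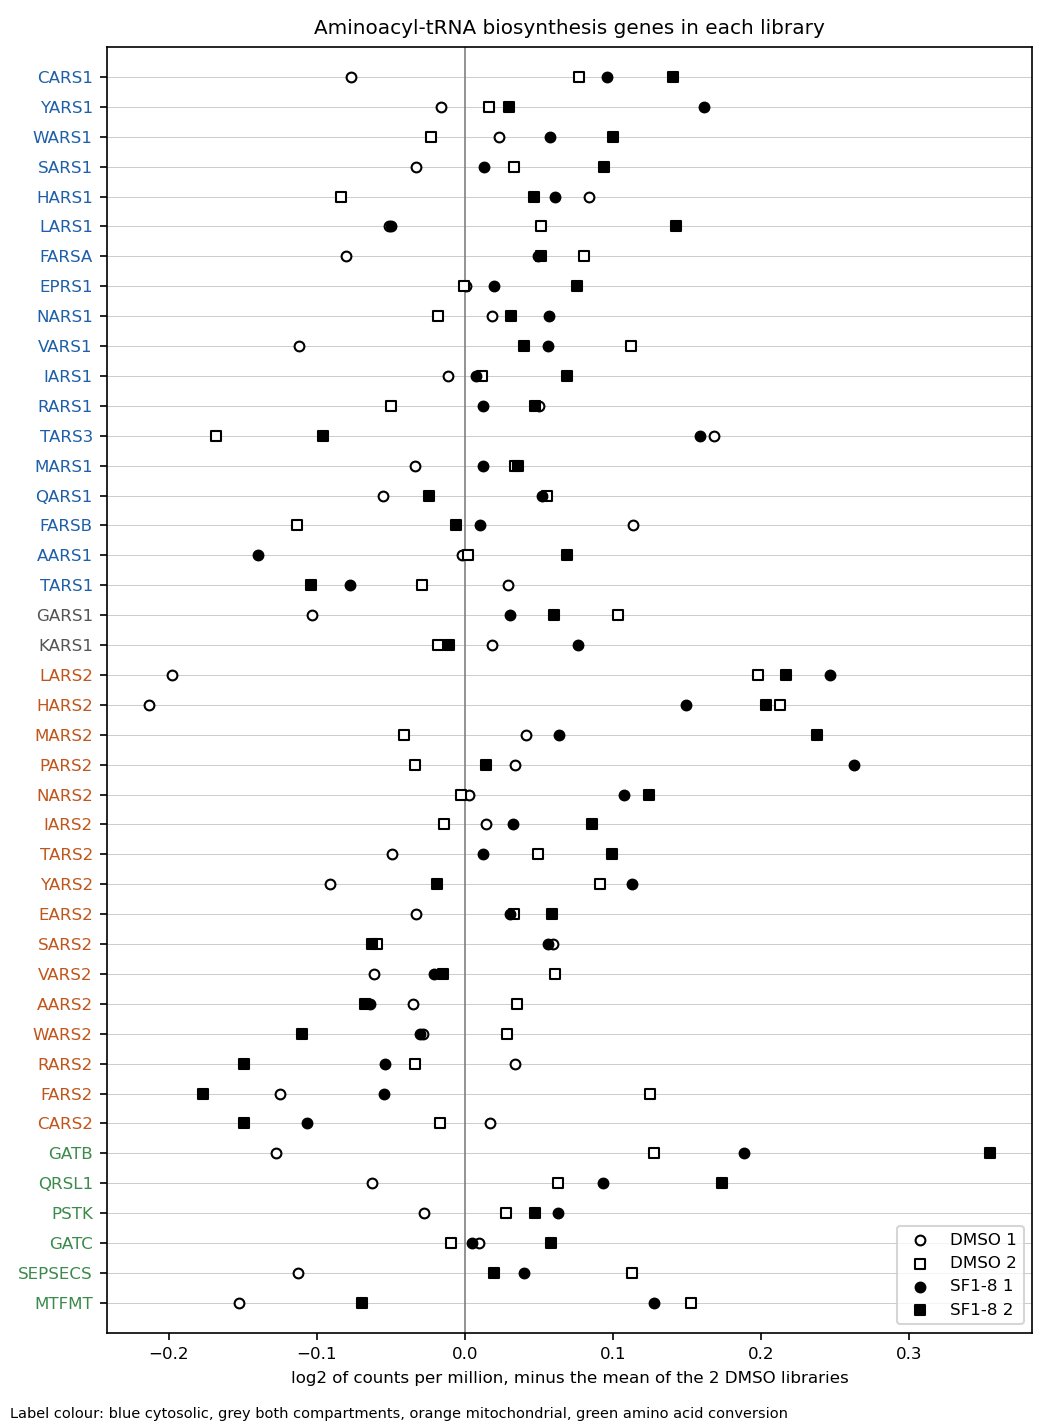
CPM of 42 of the 44 genes in each library, on the log2 scale and relative to the mean of the 2 DMSO libraries (open symbols DMSO, filled SF1-8, circles replicate 1, squares replicate 2). LARS2 and HARS2 stand out by a low DMSO 1 value, and the replicates of most other genes span as much as the groups do.

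In the cytosolic class 16 of 19 log2 fold changes were above 0, 3 were below, and their median was 0.04. Over all entries tested 48.4% were above 0 with a median of -0.01, but among the 9078 entries as abundant as these genes the share was 60.5% and the median 0.03. CARS1, for cysteine, read 4.50 and 4.74 FPKM in DMSO and 4.82 and 5.02 in SF1-8, with no overlap and a log2 fold change of 0.12 ± 0.09 (SE, adjusted p = 0.970), which was 0.04 without DMSO 1 and 0.20 without DMSO 2. YARS1, for tyrosine, read 15.6 and 15.1 against 16.8 and 15.5, where the groups overlapped in FPKM and not in CPM (0.10 ± 0.08, adjusted p = 0.970). Its log2 fold change was 0.03 without SF1-8 1 and 0.17 without SF1-8 2.

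Of the 3 cytosolic genes below 0, TARS1 was the lowest, with 49.5 and 45.0 FPKM in DMSO, 43.7 and 43.2 in SF1-8 and no overlap. Its log2 fold change was -0.09 ± 0.07 (SE, adjusted p = 0.970). AARS1, the alanine enzyme, read 22.8 and 21.7 in DMSO and 19.7 and 23.0 in SF1-8, so the SF1-8 libraries enclosed the DMSO ones, and the difference was -0.03 ± 0.09 (adjusted p = 0.986). Without SF1-8 1 it was 0.072. FARSB read 9.81 and 7.94 against 8.68 and 8.66, with the SF1-8 libraries inside the DMSO range and a log2 fold change of -0.0022 ± 0.099 (adjusted p = 0.999), whose sign turned with DESeq2, without the filter, with a replicate block, and without DMSO 1 or SF1-8 2.

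The mitochondrial class had the same median, 0.04, and a range from -0.13 to 0.22, with 10 of 17 log2 fold changes above 0 and 7 below. With a library left out the medians moved apart. The mitochondrial one was -0.0018 without DMSO 1 and -0.0031 without SF1-8 1, and the cytosolic median exceeded it by 0.011 to 0.053 as each library was left out. LARS2, the leucine enzyme, was the largest, at 4.54 and 5.65 FPKM in DMSO and 5.87 and 5.80 in SF1-8. Its groups did not overlap, but its DMSO libraries differed by 0.40 on the log2 CPM scale, more than the fitted change of 0.22 ± 0.14 (SE, adjusted p = 0.970). HARS2 had the widest DMSO gap of all 44 genes, at 0.43. Without DMSO 1 the changes of LARS2 and HARS2 were 0.03 and -0.04, and without DMSO 2 they were 0.44 and 0.40. NARS2 read 14.9 and 14.1 FPKM in DMSO and 15.3 and 15.6 in SF1-8 and MARS2, the methionine enzyme, 11.7 and 10.4 against 11.3 and 12.8. Of this pair NARS2 was without overlap in FPKM and in CPM, at a log2 fold change of 0.12 ± 0.08 (adjusted p = 0.970). MARS2 overlapped in FPKM and not in CPM, at 0.15 ± 0.10 (adjusted p = 0.970).

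At the other end CARS2 read 2.71 and 2.50 FPKM in DMSO and 2.37 and 2.31 in SF1-8, with no overlap and a log2 fold change of -0.13 ± 0.10 (SE, adjusted p = 0.970). RARS2, for arginine, read 6.41 and 5.79 against 5.73 and 5.41, also without overlap (-0.10 ± 0.09, adjusted p = 0.970), and its log2 fold change was -0.05 without SF1-8 2. FARS2, for phenylalanine, read 3.98 and 4.48 against 3.98 and 3.68. Its groups overlapped in CPM and narrowly did not in FPKM (3.984 in DMSO 1, 3.977 in SF1-8 1). The log2 fold change of FARS2 was -0.12 ± 0.13 (adjusted p = 0.970) and became 0.02 without DMSO 2. WARS2 and AARS2, for tryptophan and alanine, were also lower in both SF1-8 libraries, at log2 fold changes of -0.07 each. The cysteine enzymes CARS1 and CARS2 thus had fold changes of opposite sign, though both intervals included 0 and the difference between them was not tested.

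The balance between the compartments was compared library by library. The mean log2 CPM of the cytosolic synthetases exceeded that of the mitochondrial ones by 1.40 and 1.33 in DMSO 1 and 2 and by 1.35 and 1.40 in SF1-8 1 and 2, so the groups overlapped. The summed FPKM of the cytosolic genes was 2.83 and 2.81 times that of the mitochondrial genes in DMSO and 2.77 and 2.81 times in SF1-8. With 2 libraries a group a two-sided exact permutation test cannot go below p = 0.33, and genes are not replicates, so none was run. In 12 of the 19 pairs for the same amino acid the fold changes of both genes had the same sign. With 16 of 19 cytosolic and 10 of 17 mitochondrial changes above 0, many signs agree without any link. Several genes also recur among the pairs, and the count was not tested.

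The enzymes that act on charged tRNA had 6 of 6 log2 fold changes above 0, from 0.02 to 0.27, with a median of 0.04 and no call. GATB, QRSL1 and GATC encode the subunits of the mitochondrial GatCAB amidotransferase. GATB read 1.03 and 1.16 FPKM in DMSO and 1.22 and 1.38 in SF1-8, without overlap, at a log2 fold change of 0.27 ± 0.15 (SE, adjusted p = 0.970). It ran from 0.15 without DMSO 1 to 0.41 without DMSO 2. QRSL1, the catalytic subunit, was also without overlap, at 7.17 and 7.41 in DMSO and 7.60 and 8.10 in SF1-8. GATC, whose entry includes COX6A1, read 31.0, 28.9, 29.4 and 30.7, which overlapped, at 0.03 ± 0.07 (adjusted p = 0.977). MTFMT, which formylates mitochondrial methionyl-tRNA, and PSTK and SEPSECS, which make selenocysteine on its tRNA, had log2 fold changes of 0.02, 0.05 and 0.03. In CPM, 5 of the 6 had their lowest value in DMSO 1, as did 17 of the 38 synthetases. The share of all entries lowest in DMSO 1 was not counted.

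Synthetases fall into 2 structural classes by the fold of their catalytic site. The 18 genes of class I and the 19 of class II, which leave out EPRS1 because it carries both, each had a median log2 fold change of 0.04 and no call. The 8 enzymes of the multi-synthetase complex had 8 of 8 log2 fold changes above 0 and a median of 0.04, beside 0.05 for the 12 cytosolic genes outside it. KARS1 is one of the 8 and GARS1 is in neither count. The complex also holds 3 scaffold proteins without catalytic activity. AIMP1 read 7.25, 5.49, 6.82 and 5.54 FPKM in DMSO 1, DMSO 2, SF1-8 1 and SF1-8 2, so replicate 1 was the higher one in both groups, and its log2 fold change was -0.01 ± 0.16 (SE, adjusted p = 0.997). That value was 0.16 without DMSO 1 and 0.14 without SF1-8 2. AIMP2 read 11.2, 10.4, 11.8 and 12.0, without overlap, at 0.16 ± 0.10 (adjusted p = 0.970). EEF1E1 shared an entry with TXNDC5 and BLOC1S5 and read 28.9, 29.4, 28.9 and 29.9, at 0.04 ± 0.07 (adjusted p = 0.971), or -0.01 without DMSO 1.

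The steps on either side of charging held no call either. Over all entries 4.33% had an unadjusted p under 0.05, and lists of 4 to 24 genes can hold 0 calls at that share. Log2 fold changes above 0 made up 48.4% of all entries and 60.5% of the 9078 abundant ones. Of 24 genes of nuclear tRNA maturation and export, 0 were called at an unadjusted p under 0.05, 18 were above 0, and the median was 0.05. Of 10 genes of mitochondrial tRNA maturation, some of which are also on the nuclear list, 0 were called, 4 were above 0, and the median was -0.03, or from -0.081 to 0.0023 as each library was left out. The 7 genes of proofreading and peptidyl-tRNA hydrolysis had a median of -0.01 and the 4 elongation factors that carry charged tRNA to the ribosome one of 0.05, with 0 called in either list. EEF1A1, the main cytosolic carrier, read 1118 and 1079 FPKM in DMSO and 1116 and 1163 in SF1-8, and its mitochondrial counterpart TUFM read 118 and 114 against 116 and 114. The 22 mitochondrial tRNA genes, whose tRNAs the mitochondrial enzymes charge, were listed at 0 in all 4 libraries, so their levels could not be set beside those of the enzymes.

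Targets of ATF4 in the amino acid response were split. Of 30 listed, which include ATF4 itself, 15 were above 0 and 15 below. The median was -0.0034, and 0 had an adjusted p under 0.05. At an unadjusted p under 0.05 there were 2, 1 in each direction, against 1.78% of all entries higher and 2.54% lower. ATF3, a stress-induced transcription factor, read 0.321 and 0.127 FPKM in DMSO and 0.763 and 0.775 in SF1-8, a log2 fold change of 1.82 ± 0.44 (SE, adjusted p = 0.970). DDIT3, which encodes the stress factor CHOP, read 15.6 and 13.2 against 8.54 and 10.4, a log2 fold change of -0.58 ± 0.15 (adjusted p = 0.970). ATF4 itself read 9.33, 9.41, 8.94 and 10.4 FPKM, and ASNS, the asparagine synthetase and one of the targets, 6.64, 6.33, 6.18 and 7.52, with overlap between the groups in both. SLC7A5, a transporter of large neutral amino acids, read 60.8, 60.4, 61.2 and 61.7. The log2 fold changes of the 30 targets ranged from -2.10 to 1.82, and the outermost, for NUPR1, belonged to a gene at or below 0.149 FPKM in every library and listed at 0 in SF1-8 2.

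**Figure D4:**
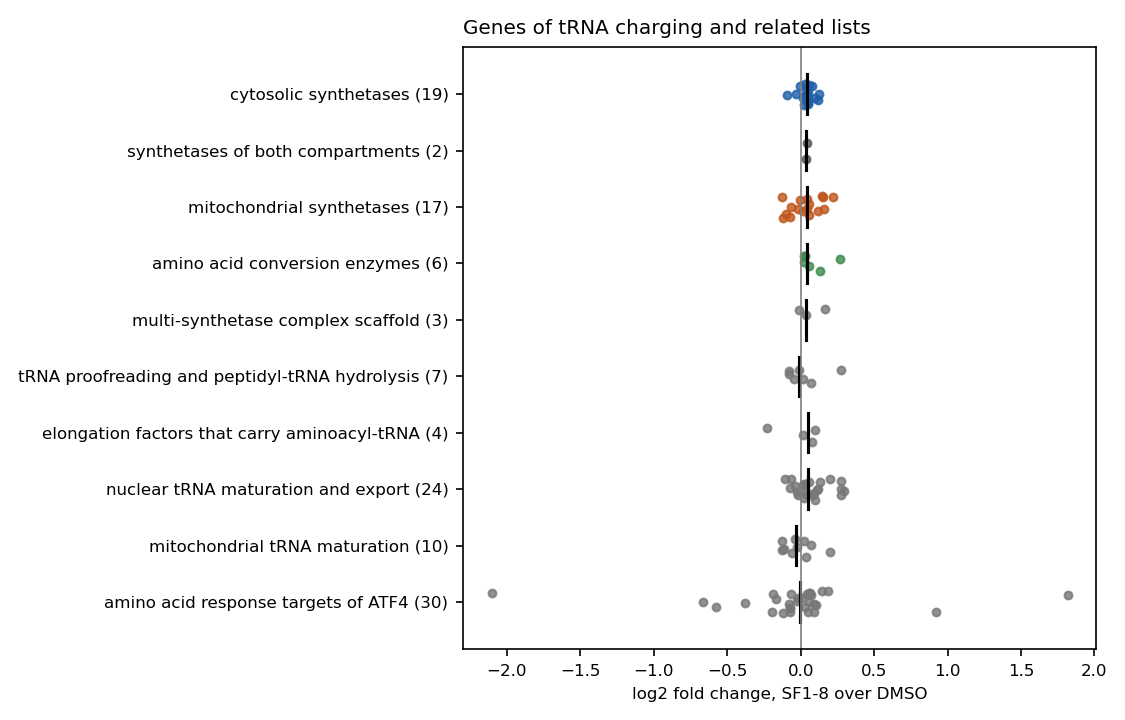
Log2 fold change of SF1-8 over DMSO for each tested gene of the synthetase classes and of the related lists, with the number of genes in parentheses and a black line at the median of each. The synthetases lie between -0.13 and 0.22, and ATF4 targets range from -2.10 to 1.82.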

How the data were processed

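RNA-seq libraries of K562-U2AF1_S34F cells, 2 given DMSO and 2 given SF1-8, were grouped by their labels. For each entry of a merged assembly the authors gave FPKM and estimated counts in every library. The deposited FPKM values account for entry length and depth, and the deposited estimated counts are whole numbers without normalization. The submitters' processing notes name cutadapt, FastQC, Bowtie2, HISAT2 and StringTie and the build hg38, and the counter and annotation version are not given in the sources used here. Entries that name no gene (2095, with 0.37% of counts) were left out. Counts were normalized by TMM (factors from 0.973 to 1.05), filtered by filterByExpr and tested with edgeR 4.0.16 in R 4.3.3, without covariates, over 26167 entries, with Benjamini-Hochberg adjustment and a threshold of 0.05. Intervals are 95% intervals of the fitted log2 fold change. Alternatives were DESeq2 1.42.0, no filter, the replicate number as a block, limma 3.58.1 on log2(FPKM + 1) or log2(FPKM + 0.1) with a filter at FPKM above 0.1 in 2 libraries or none, counts divided by 4, each library left out, GARS1 and KARS1 counted as cytosolic, and entries with several names left out. The steps were tested on simulated data.

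The 44 genes were counted in every summary, and full statistics were given for the 3 largest rises, the 3 largest falls and the 3 highest FPKM of each compartment (conversion enzymes counted with theirs), and for GARS1, KARS1 and 3 scaffold genes. Values of 2 genes that the counts and medians include are not reported here. List genes at an unadjusted p under 0.05 were named. Other genes were named after their values were seen. The members and lists were chosen with earlier results of these data known. Each symbol was matched to the entry naming it with the highest mean count. Promoters come from RefSeq. The length implied by count and FPKM was calibrated on MARS2, an entry of 1 exon.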

Additional observations from a re-analysis of the deposited data

How the results depend on the processing

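No setting on all 4 libraries called any of the 44 genes, at an adjusted or an unadjusted p under 0.05. Without DMSO 2, which left 1 DMSO library, the log2 fold changes of HARS2 and LARS2 were 0.40 and 0.44. Over all genes the count of 11 calls became 163 with DESeq2, 31 without a filter, 0 with the replicate number as a block, 0 in each of the 3 limma settings, and 0 to 30 with a library left out. The labels do not say whether same-numbered libraries belong together. The correlation of same-numbered deviations was 0.016 over all entries tested. It was -0.068 over the 9078 that reached the mean CPM of the least abundant of the 44 genes. Neither value can exclude pairing. The replicate block turned only FARSB among the named genes, to 0.0021. FARSB was also 0.0013 with DESeq2 and 0.0061 without a filter. The cause was not tested for these or the following. The cytosolic median of 0.04 was 0.052 without a filter, 0.018 to 0.019 in limma (0.0176 and 0.0189) and 0.031 with counts divided by 4. In limma with a pseudocount of 1, 0.1 and 1 without a filter, the complex enzymes had medians of 0.0079, 0.0080 and 0.0079, proofreading genes -0.030, -0.037 and -0.030, and stromal markers -0.77, -1.43 and -0.23. As each library was left out, medians ran from 0.041 to 0.062 for cytosolic and -0.0031 to 0.051 for mitochondrial synthetases, and their difference from 0.011 to 0.053. Over the same fits the scaffold ran from 0.062 to 0.16, complex enzymes from 0.021 to 0.061, proofreading from -0.011 to 0.0067, elongation factors from -0.020 to 0.066, nuclear tRNA maturation from 0.055 to 0.083, K562 markers from -0.088 to 0.016 and stromal markers from -4.86 to -1.81. Single genes turned sign, with ranges of -0.13 to 0.072 for AARS1, -0.24 to 0.02 for FARS2, -0.11 to 0.11 for FARSB, -0.058 to 0.15 for GARS1, -0.04 to 0.40 for HARS2, -0.0070 to 0.081 for KARS1, -0.065 to 0.17 for VARS1, -0.17 to 0.16 for AIMP1 and -0.01 to 0.10 for EEF1E1. A fit without 1 library assumes that the lone sample varies like the other group. With 2 libraries a group, changes smaller than the intervals given could not be seen.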
